A study of Mus musculus with 2 samples.

Results

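10 genes for moving fuel and phosphate energy were followed in type 5 retinal bipolar cells of the mouse: the glucose carriers Slc2a1, Slc2a3 and Slc2a4, the lactate carriers Slc16a1, Slc16a3 and Slc16a7 with their partner Bsg, and the creatine genes Ckb, Ckmt1 and Slc6a8. They were chosen by name, with earlier results of these data known, and all 10 of 10 symbols are among the 32813 of the table. Type 5 cells are cone bipolar cells, the interneurons that pass signals from photoreceptors to the inner retina. The series holds 1 group of 2 libraries, biological replicates of total RNA from cells sorted by fluorescence out of dissociated retina of the Htr3a-GFP line, in which green fluorescent protein reports the serotonin receptor gene Htr3a. No treatment is named, and the sources used here do not state the age, sex or number of animals behind a library. There is no second cell population, so every value is a level in the sorted cells and not an enrichment. Values are TPM (a share of all transcripts in the library, already divided by transcript length), so genes can be set side by side within a library. Because the unit holds no read numbers, the depth is unknown and no counting error can be given.

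The retina takes up glucose from blood and turns much of it into lactate even with oxygen present. Glucose enters cells through facilitative carriers of the Slc2a (GLUT) family, and lactate and pyruvate cross membranes with a proton through monocarboxylate carriers of the Slc16a (MCT) family. Some of these, MCT1 and MCT4 among them, need the membrane glycoprotein basigin, encoded by Bsg, to reach the cell surface. Creatine kinases pass phosphate between ATP and creatine, the mitochondrial form near the site of ATP synthesis and the cytosolic form where ATP is spent, and Slc6a8 brings creatine into the cell.

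The cytosolic creatine kinase Ckb, basigin and the creatine transporter Slc6a8 were the most abundant of the 10 genes in the sorted cells, the glucose carriers Slc2a1 and Slc2a3 and the mitochondrial kinase Ckmt1 were at intermediate levels, and the lactate carriers themselves were low. The order of mean TPM was Ckb, Bsg, Slc6a8, Slc2a1, Ckmt1, Slc2a3, Slc16a7, Slc16a3, Slc16a1 and Slc2a4. From Ckb down to Slc16a7, and again from Slc16a1 to Slc2a4, the 2 values of each gene lay wholly above those of the next. Slc16a7, Slc16a3 and Slc16a1 overlapped, so no order among these 3 lactate carriers is given.

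**Figure D1:**
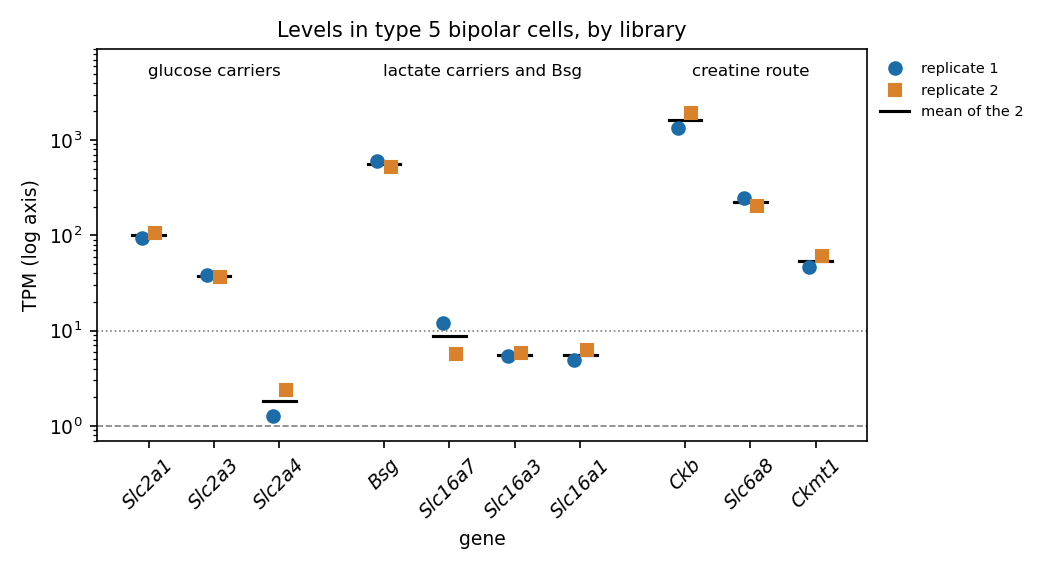
TPM on a log axis of each of the 10 genes in replicate 1 (circles) and replicate 2 (squares), grouped by role, with the mean as a bar and lines at 1 (dashed) and 10 TPM (dotted). Ckb, Bsg, Slc6a8, Slc2a1, Ckmt1 and Slc2a3 lie above 10 TPM in both libraries, the 3 lactate carriers lie between 4.90 and 11.9 TPM, and Slc2a4 lies lowest.

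The test called 7 of the 10 genes above a level of 1 TPM and 6 above 10 TPM (limma on log2(TPM + 1), one-sided, Benjamini-Hochberg adjusted p under 0.05 over 19968 genes). Of all genes tested, 55.5% were called above 1 TPM and 32.4% above 10 TPM. The count of 7 is thus near the share of all genes and is no result about these 10, while the count of 6 lies above that share. Because the 10 genes were chosen with earlier results of these data known, neither that excess nor their median level tests the set. The 6 called above 10 TPM were Ckb, Bsg, Slc6a8, Slc2a1, Ckmt1 and Slc2a3, and Slc16a7 was the seventh above 1 TPM. The call of Slc16a7 was lost when genes at 0 in both libraries were tested too (limma, adjusted p = 0.0792, against 0.00698 as reported and 0.000113 at the lowest), and Slc16a1 and Slc16a3 were called in 6 of 7 other settings. Slc16a1, Slc16a3 and Slc2a4 were not called as reported, and this does not show that they lie under 1 TPM: without a test, all 10 reached 1 TPM in each library, as did 67.6% of the genes tested. The median over the 10 genes of mean log2(TPM + 1) was 5.50, against 3.22 over all genes tested. In this fit each gene's variance came from the trend of all genes with level, so how closely a gene's own 2 values matched did not enter its call.

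Slc2a1 encodes GLUT1, the glucose carrier of the blood-retina barrier and of many retinal cells. It stood at 94.4 TPM in replicate 1 and 106 in replicate 2, a mean of 100.2 ± 8.20 TPM (SD, n = 2). Slc2a3 encodes GLUT3, the high-affinity carrier typical of neurons, and had 38.15 and 36.3 TPM, a mean of 37.2 ± 1.31. Both libraries thus gave nearly the same level for either gene, with Slc2a1 2.48-fold above Slc2a3 in replicate 1 and 2.92-fold in replicate 2. Slc2a4, which encodes the insulin-responsive GLUT4 of muscle and fat, had 1.28 and 2.38 TPM, a mean of 1.83 ± 0.78 (SD, n = 2). By mean level, Slc2a1 exceeded 91.8% of the symbols above 0 in either library, Slc2a3 77.0% and Slc2a4 26.2%.

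Of 11 other glucose carriers, 1 (9.1%) was called above 1 TPM and 0 above 10 TPM, against 55.5% and 32.4% of all genes tested. The 1 called, Slc2a8 (GLUT8, a carrier of intracellular membranes), had 1.90 TPM in replicate 1 and 18.8 in replicate 2. Slc2a5, the fructose carrier GLUT5, had 37.0 TPM in replicate 1, against a listed 0 in the other library. Slc2a5 is also used as a mark of microglia, and 5 microglial genes summed to 3.21 TPM in replicate 1 and 15.1 in replicate 2. That sum rests on Aif1, with a listed 0 and 12.95 TPM. Cx3cr1, with 2.01 and 1.34 TPM, and P2ry12, with 1.06 and 0.43, were higher in replicate 1, as was Slc2a5. Of the 5 microglial genes, 2 were thus higher in replicate 1, 2 were higher in replicate 2, and C1qa was listed at 0 in both. None of the 5 was called above 1 TPM, and the part of microglia in the Slc2a5 values was not tested. Slc2a6 had 4.80 and 3.37 TPM, Slc2a9 had 4.18 and 1.22, and Slc2a12 had 0.47 and 2.70. Slc2a12 shares 407 exonic bases with Tbpl1 on the opposite strand, which had 67.7 and 171 TPM, so reads of the pair may not be told apart. The hepatic carrier Slc2a2 had 0.69 TPM and a listed 0. Slc2a10 and Slc2a13 were under 1 TPM in both libraries, and Slc2a7 and the sodium-glucose cotransporters Slc5a1 and Slc5a2 were listed at 0 in both. Of the summed TPM of the 12 Slc2a genes, Slc2a1 made up 51.6% in replicate 1 and 62.0% in replicate 2, and Slc2a3 20.8% and 21.2%. The share of Slc2a1 differed with Slc2a5, which made up 20.2% in replicate 1.

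Of 5 hexokinases, which trap glucose by phosphorylation, 2 were called above 1 TPM and 2 above 10 TPM. Hk1, the hexokinase of most neurons, had 73.1 and 84.6 TPM. Hk2, a hexokinase abundant in photoreceptors and muscle, had 147 and 35.7 TPM, so that Hk2 led in replicate 1 and Hk1 in replicate 2. Rod photoreceptor markers were also present, 7 of 7 called above 1 TPM, against 55.5% of all genes tested. Their summed level was 1556 TPM in replicate 1 and 1410.3 in replicate 2. The lower sum in replicate 2 came from Gngt1, with 965 and 639 TPM, and the other 6 rod markers were higher in replicate 2. All 5 cone markers were higher in replicate 1, with sums of 101 and 29.1 TPM. Those sums rest on Gnat2, with 86.0 and 23.3 TPM, the only 1 of the 5 called above 1 TPM. The part of rods and cones in the Hk2 values was not tested. Hkdc1 had 0.60 and 3.85 TPM, and Hk3 was listed at 0 in both libraries.

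Of 7 genes that set how much GLUT1 or GLUT4 stays at the surface, 4 were called above 1 TPM and 3 above 10 TPM, shares of 57.1% and 42.9% against 55.5% and 32.4% of all genes tested. The count above 1 TPM is thus near the share of all genes. Lnpep, an aminopeptidase that travels with GLUT4 vesicles, had 47.2 and 26.7 TPM. Insr, the insulin receptor, had 30.7 and 34.5 TPM. Aspscr1 (TUG), which tethers GLUT4 vesicles, had 21.3 and 43.6 TPM. Tbc1d1, a GTPase activator in the same route, had 17.7 and 7.50 TPM, while its relative Tbc1d4 was listed at 0 in both libraries. Txnip, which drives removal of GLUT1 from the surface, had a listed 0 and 0.39 TPM, and its relative Arrdc4 had 2.30 and 1.17 TPM. Txnip shares 606 exonic bases with Gm15441 on the opposite strand, which had 1.88 and 0.75 TPM. The GLUT4 trafficking genes Lnpep and Aspscr1 thus stood well above Slc2a4 itself in both libraries.

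**Figure D2:**
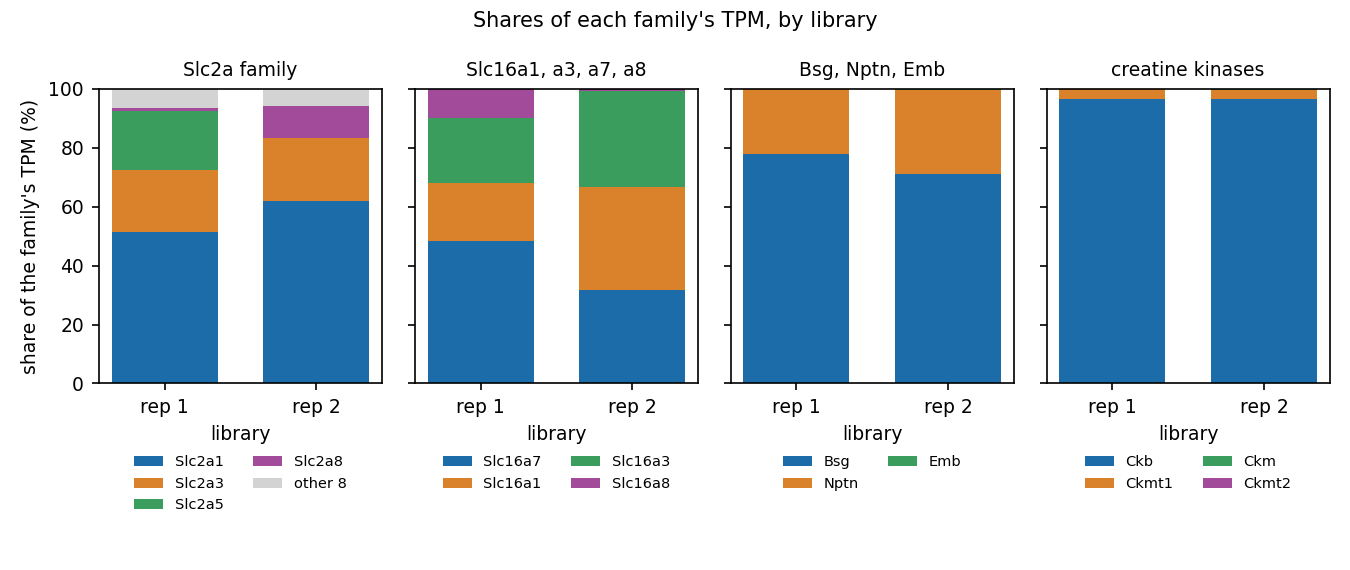
Share in percent of each family's summed TPM taken by its genes, in replicate 1 and replicate 2, for the 12 Slc2a genes, the 4 lactate carriers, the 3 basigin-family genes and the 4 creatine kinases. Ckb takes over 96% of creatine kinase TPM in both libraries, whereas the shares of the lactate carriers, and of Slc2a5 and Slc2a8, differ between the libraries.

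The lactate carriers were all low, and only 1 of the 3 differed in TPM by over 2-fold between the libraries. Slc16a1 encodes MCT1, a carrier of broad distribution, and had 4.90 TPM in replicate 1 and 6.21 in replicate 2, a mean of 5.55 ± 0.93 TPM (SD, n = 2). Slc16a3 encodes MCT4, a carrier suited to lactate export from glycolytic cells, and had 5.40 and 5.79 TPM, a mean of 5.59 ± 0.28. Slc16a7 encodes MCT2, the high-affinity carrier typical of neurons, and had 11.9 and 5.64 TPM, a mean of 8.79 ± 4.45 (SD, n = 2). In replicate 1 Slc16a7 was 2.43-fold above Slc16a1, and in replicate 2 the ratio was 0.91, so neither carrier led in both libraries. Slc16a1 over Slc16a3 gave 0.91 in replicate 1 and 1.07 in replicate 2.

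Bsg stood far above the lactate carriers, at 598 TPM in replicate 1 and 525 in replicate 2, a mean of 562 ± 51.6 TPM (SD, n = 2), and ranked 170 of all symbols by mean level. Its TPM was 26.9-fold the sum of Slc16a1, Slc16a3 and Slc16a7 in replicate 1 and 29.8-fold in replicate 2. Basigin also has partners other than these carriers, and the retina makes a long and a short form of it. TPM values are per gene, so the forms were not told apart here. Nptn, which encodes the related neuroplastin, had 168 and 210.1 TPM, and Emb, which encodes the embigin partner of MCT2, had a listed 0 and 1.65 TPM. Emb shares 686 exonic bases with Gm17509 on the opposite strand, which had 5.30 and 30.1 TPM. Of these 3 genes' summed TPM, Bsg made up 78.0% and 71.3%.

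Of the 11 other Slc16 genes, 3 (27.3%) were called above 1 TPM and 0 above 10 TPM, against 55.5% and 32.4% of all genes tested. The 3 called were Slc16a11, with 9.89 and 15.1 TPM, Slc16a4, with 11.2 and 7.20, and Slc16a6, with 6.56 and 9.86. Slc16a6 shares 1052 exonic bases with Amz2 on the opposite strand, which had 80.2 and 46.0 TPM, and the sources used here do not state whether strand was used in counting. Slc16a13 had 3.86 and 7.59 TPM and Slc16a14 1.74 and 4.28. Slc16a8 (MCT3), the lactate carrier of the retinal pigment epithelium, had 2.47 and 0.13 TPM, and of 4 other pigment epithelium genes 2 were also higher in replicate 1, Tyr with 6.93 and 4.74 TPM and Best1 with 0.64 and 0.11, while Rpe65 and Tyrp1 were listed at 0 in both libraries. The part of pigment epithelium in the Slc16a8 values was not tested. Slc16a10 and Slc16a12 were under 1 TPM in both, and Slc16a5 and Slc16a9 were listed at 0 in both. Slc5a12, a sodium-coupled lactate carrier, had 22.5 and 8.20 TPM and was called above 1 TPM, whereas the related Slc5a8 was listed at 0 and at 0.42 TPM.

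The enzymes and carriers that handle lactate and pyruvate inside the cell were all called above 10 TPM, 4 of 4, against 32.4% of all genes tested. This list was also chosen with earlier results of these data known, so that excess does not test it. Ldha, the lactate dehydrogenase subunit of glycolytic tissues, had 827 and 888 TPM. Ldhb, the subunit of oxidative tissues, had 39.5 and 34.3 TPM. Ldha was 20.96-fold above Ldhb in replicate 1 and 25.9-fold in replicate 2. The mitochondrial pyruvate carrier subunit Mpc2 had 181 and 185 TPM and its partner Mpc1 had 76.7 and 80.5. These 4 genes matched closely between the libraries, each within 1.15-fold. Mpc1 shares 480 exonic bases with 4930506C21Rik on the opposite strand, which had 20.4 and 31.2 TPM.

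**Figure D3:**
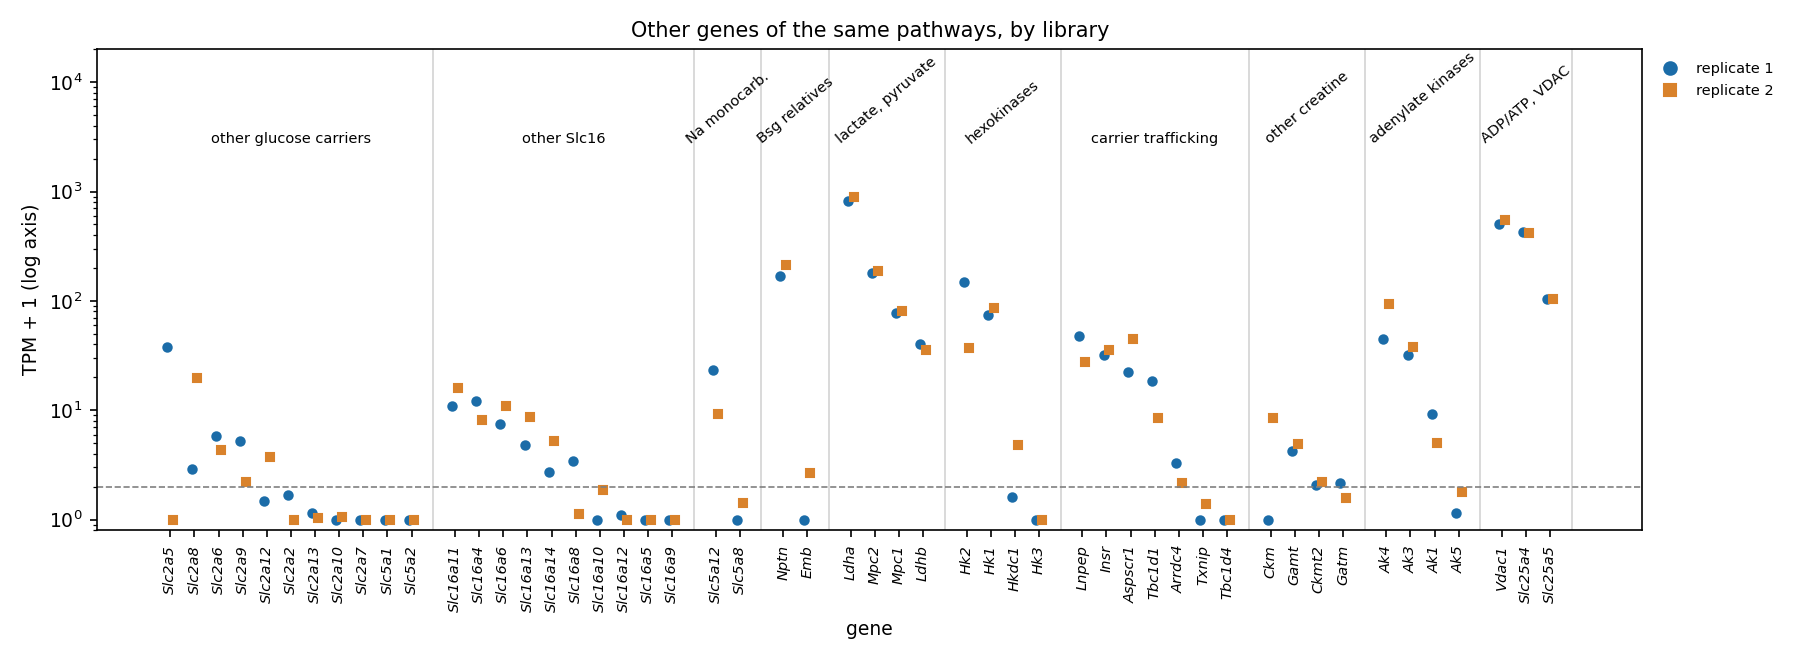
TPM + 1 on a log axis of 51 other genes of the same pathways, in replicate 1 (circles) and replicate 2 (squares), by list, with a dashed line at 1 TPM. The lactate and pyruvate genes and the mitochondrial ADP/ATP carriers and Vdac1 stand high with both libraries close, while Slc2a5, Slc2a8, Hk2 and Ckm differ widely.

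Ckb, the cytosolic brain-type creatine kinase, had the highest level of the 10 genes. It stood at 1339.8 TPM in replicate 1 and 1919 in replicate 2, a mean of 1630 ± 410 TPM (SD, n = 2), and ranked 41 and 31 among all symbols in the 2 libraries. Ckmt1, the ubiquitous mitochondrial creatine kinase, had 46.2 and 60.4 TPM, a mean of 53.3 ± 10.03. Both enzymes were higher in replicate 2, and Ckb stood 29.0-fold above Ckmt1 in replicate 1 and 31.8-fold in replicate 2. Ckb made up 96.6% of the TPM of the 4 creatine kinases in replicate 1 and 96.5% in replicate 2. The muscle isoform Ckm had a listed 0 in replicate 1 and 7.57 TPM in replicate 2, and the muscle mitochondrial isoform Ckmt2 had 1.09 and 1.23 TPM.

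Slc6a8, the creatine transporter, had 246 TPM in replicate 1 and 205 in replicate 2, a mean of 226 ± 29.3 TPM (SD, n = 2). The enzymes that make creatine were far lower: Gatm, which catalyses the first step, had 1.14 and 0.57 TPM, and Gamt, which catalyses the second, had 3.20 and 3.90. Of the 4 other creatine genes (Ckm, Ckmt2, Gatm and Gamt), 0 were called above 1 TPM by limma, 0 at an unadjusted p under 0.05, and 2 reached 1 TPM in each library without a test. Of all genes tested, 55.5% were called above 1 TPM and 67.6% reached it in each library. The import gene thus stood above both synthesis genes in both libraries.

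The partners of mitochondrial creatine kinase were called above 10 TPM, 3 of 3, against 32.4% of all genes tested. Vdac1, the outer-membrane channel, had 500 and 543 TPM. The ADP/ATP carriers Slc25a4 and Slc25a5 had 427 and 417 TPM and 103 and 102. All 3 stood above Ckmt1 in both libraries. Of 5 adenylate kinases, 3 (60.0%) were called above 10 TPM, against 32.4% of all genes tested. Among the 3 were Ak4 with 43.5 and 92.5 TPM and Ak3 with 31.3 and 37.0. Ak3 shares 430 exonic bases with Cdc37l1 on the opposite strand, which had 64.7 and 48.2 TPM. The cytosolic Ak1 had 8.16 and 4.04 TPM and Ak5 0.14 and 0.80, both far below Ckb. Over the 54 other pathway genes, 22 (40.7%) were called above 1 TPM and 16 (29.6%) above 10 TPM, against 55.5% and 32.4% of all genes tested, so the count above 10 TPM is near the share of all genes. The pathway lists were also chosen with earlier results of these data known. The excess for the creatine kinase partners and the adenylate kinases therefore tests neither list.

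Between the libraries, 9 of the 10 genes differed by less than 2-fold in TPM. In log2(TPM + 1) all 10 lay within 2-fold. So did 47.6% of all genes averaging 1 to 10 TPM and 72.1% of those at 10 to 100. At 100 to 1000 TPM 90.8% did, and at 1000 TPM or more 85.9%. On the log2(TPM + 1) scale the difference, replicate 2 minus replicate 1, ran from -0.96 for Slc16a7 to 0.57 for Slc2a4. It was 0.52 for Ckb, 0.38 for Ckmt1, 0.29 for Slc16a1, 0.17 for Slc2a1 and 0.09 for Slc16a3, and it was -0.07 for Slc2a3, -0.19 for Bsg and -0.26 for Slc6a8. The median gene with a mean of at least 10 TPM was at -0.20, so Bsg and Slc6a8 lay close to that median, and relative to it Ckb stood higher in replicate 2 by 0.72. The sign for Slc2a3 turned when TPM were rescaled without mitochondrial-genome RNA or the median was subtracted, and that for Bsg when the median was subtracted. RNA of the mitochondrial genome took 17.3% of TPM in replicate 1 and 24.6% in replicate 2, and this share counts within the same total. Of other genes at 1 to 10 TPM, 53.6% differed more than Slc16a7 and 95.5% more than Slc16a3. Of those at 10 to 100 TPM, 94.2% differed more than Slc2a3. Of other genes at 1000 TPM or more, 38.1% differed more than Ckb. No difference between the libraries was tested, since each side of it is a single library. In sorted bulk cells, fewer cells of a type and less RNA per cell cannot be told apart.

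**Figure D4:**
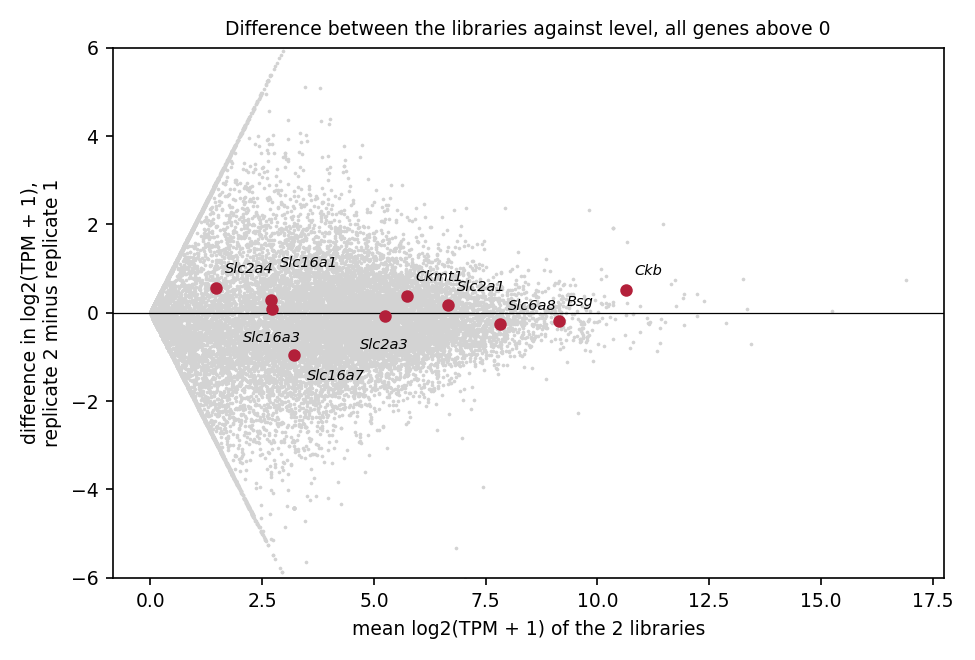
Difference in log2(TPM + 1) between the libraries (replicate 2 minus replicate 1) against the mean of both, for the genes above 0 in either library (gray), with the 10 genes in red. The axis stops at 6 log2 units either way and leaves out 22 genes. The 10 genes lie between -0.96 and 0.57, within the gray cloud at their level.

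The label of the cells was checked against markers. Of all genes tested, 55.5% were called above 1 TPM and 32.4% above 10 TPM. All 9 of 9 type 5 and ON bipolar markers were called above 10 TPM, with Htr3a, the gene whose reporter was sorted, at 90.9 and 88.8 TPM. Of 7 Muller glia markers 5 were called above 1 TPM, with a summed level of 177 TPM in replicate 1 and 371 in replicate 2. In replicate 1 the sum rests on Glul, with 75.8 and 124 TPM, and Clu, with 85.7 and 79.5. Vim, another of the 7, had 0.20 and 119 TPM. Rlbp1, with 2.31 and 3.74 TPM, was not called. Muller glia and photoreceptors also use several of the 10 genes, and the part of these cells in the levels was not tested. Endothelial cells carry much Slc2a1, and 4 endothelial markers summed to 1.93 and 1.86 TPM, with Cldn5 and Cdh5 listed at 0 in both libraries. Most of either sum came from Pecam1, the only 1 of the 4 to reach 1 TPM in each library. None of the 4 was called above 1 TPM, and the part of endothelial cells in the Slc2a1 level was not tested. Of 5 red blood cell markers 3 were called above 1 TPM, with sums of 56.5 and 55.2 TPM. None of the 15 astrocyte, pericyte, pigment epithelium and microglia markers was called above 1 TPM by limma, and 1 passed at an unadjusted p under 0.05. Of 5 amacrine markers 1 was called, 1 reached 1 TPM in replicate 1 and 5 in replicate 2, and 4 were higher in replicate 2. Their sums of 37.9 and 38.9 TPM rest on different genes, Slc6a9 with 36.5 and 3.12 TPM, and Tfap2b with 0.33 and 20.4 and Gad1 with 0.06 and 10.4. Of 7 horizontal and ganglion cell markers 0 were called and 1 passed at an unadjusted p under 0.05.

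On the assembly GRCm38, also called mm10, all 10 genes are protein-coding in GENCODE M21 and lie on 8 chromosomes. Slc2a1 lies on chromosome 4 from 119108711 to 119137983 and Slc16a1 on chromosome 3 from 104638668 to 104658462, both on the plus strand. Bsg, on the plus strand from 79704491 to 79711969, and Slc16a7, on the minus strand from 125219270 to 125389465, are both on chromosome 10. Chromosome 11 carries Slc2a4 from 69942539 to 69948188 on the minus strand and Slc16a3 from 120948480 to 120960868 on the plus strand. Slc2a3 lies on chromosome 6 from 122727809 to 122801640 and Ckb on chromosome 12 from 111669361 to 111672338, both on the minus strand. Ckmt1 lies on chromosome 2 from 121357714 to 121363737 and Slc6a8 on chromosome X from 73673150 to 73682502, both on the plus strand.

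Of the 10 genes, Slc2a1, Slc16a7 and Ckmt1 share exonic bases with another gene, and Slc2a3 and Slc16a1 overlap others outside exons. Slc2a1 shares 105 exonic bases with the antisense gene Gm12868, which had 2.43 and 0.65 TPM, and Ckmt1 shares 10 with Strc on the opposite strand, which had 3.10 and 0.43 TPM, both far below the gene they overlap. Slc16a7 shares 179 exonic bases with Gm47862 on the opposite strand, which under this name is not among the deposited symbols. Transcripts of at least 85% identity over at least 150 bases were found in other genes for Ckb alone. The copies were Gm12892, with 96.8% identity over 1149 bases, and the pseudogenes Ckb-ps1 and Ckb-ps2, with 87.7% and 88.6%. Under these names none of the copies is among the deposited symbols, so they have no TPM to set beside Ckb. The sources used here do not state how reads were shared between Ckb and these copies, so the Ckb level is uncertain to that extent.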

How the data were processed

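RNA was sequenced from 2 libraries of sorted type 5 bipolar cells, made with an amplification kit for small RNA amounts per the labels' protocols. The authors deposited 1 table of TPM with a column per library, summing to 999999.75 and 999999.66, and no depth. TopHat2 2.0.10, RSEM 1.2.28 and mm10 appear, with no role for each, in the submitters' processing notes. The sources used here state neither annotation, filters nor use of strand. The column of replicate 1 misspells the gene in its name and was matched by its replicate number.

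Values were put on log2(TPM + 1), with a pseudocount of 1. A gene was called above 1 or 10 TPM with limma 3.58.1 in R 4.3.3 (intercept only, variance trend, one-sided, Benjamini-Hochberg over the 19968 genes above 0 in either library, threshold 0.05). The estimated prior gave 19968 total degrees of freedom, so variances came from the trend alone. Single adjusted p-values are therefore given only where a call changed. In simulated data, which assume that trend, the calls above 1 TPM took in 26 of 50 genes at a set level of 4 TPM, 50 of 50 at 16 TPM, and 16 of 4402 at or under the line. Means ± SD are over n = 2. Copies were searched with BLAST 2.17.0 against GENCODE M21 transcripts, using the longest coding transcript of each gene. Python 3.11.15 and pandas 2.3.3 were used for the rest. The genes and lists were chosen with earlier results of these data known. All members and genes of the pathway lists could be named, and of each marker list up to 3 of the highest and 1 of the lowest level, while Rpe65, Tyrp1, Cldn5 and Cdh5 were named as defining markers at 0 after their values were seen, as were Vim and Htr3a, and overlapping genes by their position. Alternatives were 2 other pseudocounts, 2 filters, no trend, robust variances, TPM rescaled without the mitochondrial genome, median centring, and each library alone. Some genes of the lists are not reported here by name.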

Additional observations from a re-analysis of the deposited data

How the results depend on the processing

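The number of genes called above 10 TPM was 6 in each of the 7 other limma settings, and 6 to 7 in single libraries without a test. The number above 1 TPM was 9 in 6 of the 7 settings, 6 with no filter on genes at 0, and 10 in either library alone. Slc16a1 and Slc16a3 were the genes gained: with limma their adjusted p was 0.061 and 0.0583 as reported, and from 0.00725 to 0.214 and from 0.00672 to 0.203 over the alternatives. Slc16a7 (adjusted p = 0.00698) was not called with no filter (0.0792, the highest of its alternatives, the lowest being 0.000113). Of the 54 pathway genes 19 to 26 were called in the 7 settings, and 33 to 34 were at or over 1 TPM in single libraries without a test, against 22 reported. The share of all genes tested that was called above 1 TPM was 27.6% with no filter and 57.0% to 68.2% in the other 6 settings, against 55.5% as reported. Both counts above 1 TPM thus moved in the same direction as that share. Above 10 TPM the share of all genes ran from 13.5% to 38.1% over the 7 settings, against 32.4% as reported. Rescaling without mitochondrial-genome RNA raised the level of all 10 genes and moved the median difference of the genes averaging 10 TPM or more from -0.20 to -0.07. Mean TPM became 127 for Slc2a1, 47.2 for Slc2a3, 7.08 for Slc16a1, 7.11 for Slc16a3, 710.1 for Bsg, 2084 for Ckb, 67.99 for Ckmt1 and 285 for Slc6a8, a shift larger than 1 SD, and the other 2 moved by less. The difference between the libraries changed sign for Slc2a3 (0.06 rescaled, 0.13 with the median difference subtracted) and for Bsg with the median subtracted (0.014). No paired analysis was possible because the series has 1 group. TPM keeps no depth, so what depth limits cannot be given.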
